A study of Mus musculus with 16 samples.

Results

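Blood neutrophils of αD KO and WT mice were compared at 12 hours post-CLP. CLP, cecal ligation and puncture, is a surgical model of polymicrobial abdominal sepsis. The comparison holds the blood samples labelled αD KO or WT at 12 hours, which are 4 of the 16 samples of the series and 6 of its 24 count files, 3 files for each genotype. Both genotypes had CLP, all mice were male and 8 to 12 weeks old, and cells were sorted as Ly6G+, CD11b+ and CD45.2+. The αD KO mice carried a germline deletion and came from a commercial supplier, so the deletion is not limited to neutrophils, and a background strain for the sequenced mice was not given in the sources used here. Untreated blood samples of both genotypes (0h) and lung neutrophils of both genotypes at 0h and at 12 hours post-CLP were used as references. Sample 1 of each group had 2 files, named libraries 1a and 1b here, and sample 2 had 1 file, library 2. Values below are listed in the order 1a, 1b, 2. The counts of 1a and 1b differed far beyond sampling noise, with chi-square values of 229.6 (labelled αD KO) and 95.6 (labelled WT) for each degree of freedom, and each file was used as a library. Nothing states whether the libraries came from separate animals, so p-values measure the spread between these libraries, which may be technical.

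αD, also called CD11d, is the α chain of a β2 integrin, a family of leukocyte adhesion receptors in which a common β chain (CD18, encoded by Itgb2) pairs with αL, αM, αX or αD. In neutrophils the αL and αM pairs carry firm adhesion, crawling and phagocytosis, and talin, kindlin-3 and filamin link the β tail to actin. During CLP sepsis blood neutrophils are replaced by cells newly released from marrow and switch on genes for alarmins, cytokine feedback and acute-phase proteins.

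The 6 libraries held between 12585251 and 26047974 counts over genes, and the 10 most abundant genes of each held 21.6% to 28.1% of its counts. The alarmin S100a8 stood at 51860, 80756 and 60097 CPM (αD KO) and at 97865, 42559 and 81458 CPM (WT), where CPM is the count scaled by library size. Summed levels of 10 neutrophil markers were 127360 to 144640 CPM (αD KO) and 111190 to 202430 CPM (WT), with no marker at 0 in all libraries of a group. Markers of other blood cells were low but present. The 15 B cell markers summed to 47.4 to 160 CPM (αD KO) and 48.4 to 320 CPM (WT), the 20 T and NK cell markers to 12.4 to 25.4 and 18.4 to 23.9 CPM, and the 15 platelet markers to 43.8 to 131 and 51.7 to 98.7 CPM. Erythroid markers spread most, at 39.7, 5975 and 538 CPM (αD KO) and 399, 1657 and 2497 CPM (WT). In these bulk samples, fewer cells of a type and less RNA per cell cannot be told apart. The 1b libraries stood apart from the rest. In each group of the series the 1b library had the fewest counts and the most genes with counts. In blood at 12 hours the 1b libraries held counts in 29162 (αD KO) and 33962 (WT) genes, against 20504 to 22777 in the other libraries. Library 1b labelled αD KO correlated at r = 0.952 with library 1b labelled WT across genes on the log2 CPM scale, against 0.892 with library 1a of its own sample. Values without both 1b libraries, a choice made after the data were seen, are given beside many of the results.

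The targeted gene did not follow the labels. Itgad (chromosome 7, 128154376 to 128223816, GRCm38) was at 15.7, 12.5 and 21.2 CPM where the label was αD KO and at 0.0583, 0.401 and 0.139 CPM where it was WT. Its log2 fold change, labelled αD KO minus labelled WT as throughout, was 6.17 (SE 0.67) with an adjusted p of 0.0807 in edgeR's quasi-likelihood test and 3.16e-17 in DESeq2, and without both 1b libraries 7.49 with an edgeR adjusted p of 0.0336. The same direction appeared in the 3 comparisons that share none of these libraries, at 4.61 in blood at 0h, 4.39 in lung at 0h and 7.28 in lung at 12 hours. The files give 1 count for a whole gene and none for its exons, so they do not show which part of Itgad the reads came from. Every direction below is therefore one between libraries as labelled.

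Across all genes, few differences were large against the spread. Of 12596 genes tested, edgeR called 0 (percent called 0) at an adjusted p under 0.05 with an absolute log2 fold change over 1, while 505 genes (4.01%) had an unadjusted p under 0.05, 226 (1.79%) of them higher and 279 (2.21%) lower in the libraries labelled αD KO. The lowest adjusted p in edgeR was 0.0723, and beyond 3 genes the others were at 0.962 or above. DESeq2 called 10 genes (0.0594%), 4 (0.0237%) higher and 6 (0.0356%) lower, and limma-voom with quality weights called 6 (0.0476%). Log2 fold changes were centred near 0, with a median of 0.03, quartiles of -0.29 and 0.32, and a median SE of 0.42. In 998 genes (7.92%) the 3 libraries of one label all lay above the 3 of the other, 425 (3.37%) higher and 573 (4.55%) lower in those labelled αD KO. Without the 1b libraries, edgeR called 28 genes (0.224%), 7 (0.0559%) higher and 21 (0.168%) lower, and DESeq2 called 778 (6.56%), 238 (2.01%) higher and 540 (4.55%) lower.

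Most genes called by DESeq2 lay on the chromosome of Itgad. Of the 10, Itgad included, 8 lie on chromosome 7 and 6 within 20 Mb of Itgad. This window holds 2.5% of the genes tested by edgeR, a smaller set than that tested by DESeq2. The share of tested genes on the whole chromosome is not given here. Gdpd3, a lysophospholipase D, was at 74.2, 77.6 and 82.4 CPM (αD KO) against 6.12, 6.88 and 13.8 CPM (WT), a log2 fold change of 3.14 (SE 0.36, edgeR adjusted p = 0.0807). The long noncoding RNA 4732496C06Rik was at 0.143, 0.179 and 0.0714 CPM against 8.46, 4.47 and 9.39 CPM, a log2 fold change of -5.73 (SE 0.56, edgeR adjusted p = 0.0723). In both genes the groups were far apart. Its gene starts just past the end of Nucb2, which encodes a calcium-binding protein, and Nucb2 itself was at 7.14, 25.7 and 4.64 CPM against 148, 46 and 75.7 CPM (log2 fold change -2.68, SE 0.73, DESeq2 adjusted p = 0.0101). The leucine-rich repeat gene Lrrc27 was at 1.93, 5.01 and 3.07 CPM against 19.4, 15.6 and 19.9 CPM (log2 fold change -2.4, SE 0.45). Without both 1b libraries edgeR also called 4732496C06Rik (-6.26, adjusted p = 0.035), Nucb2 (-4.22, adjusted p = 0.035) and Lrrc27 (-2.95, adjusted p = 0.0471). Wdr11, a WD-repeat gene of vesicle traffic, was at 2.0, 1.25 and 1.71 CPM against 12.4, 8.03 and 5.92 CPM. Lilra5, an activating leukocyte immunoglobulin-like receptor, lay under 1 CPM in each library labelled αD KO and at 5.13, 2.21 and 3.34 CPM in those labelled WT. Wnt11, a secreted Wnt ligand, had 90 counts in all over the libraries labelled αD KO, most of them in library 1a, and 0 counts in those labelled WT, and was below the count filter of edgeR. The 2 calls off chromosome 7 were Papss1, which makes the sulfate donor PAPS, at 2.64, 4.48 and 4.07 against 23.6, 12.4 and 13.2 CPM, and Rps13-ps1. The latter is a near-identical copy of Rps13, a gene inside the 20 Mb window, so its reads may be shared with that gene and its value is uncertain. Within the 20 Mb window 36 of 315 genes (11.4%) had groups that did not overlap, against 7.83% of the genes elsewhere.

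**Figure D1:**
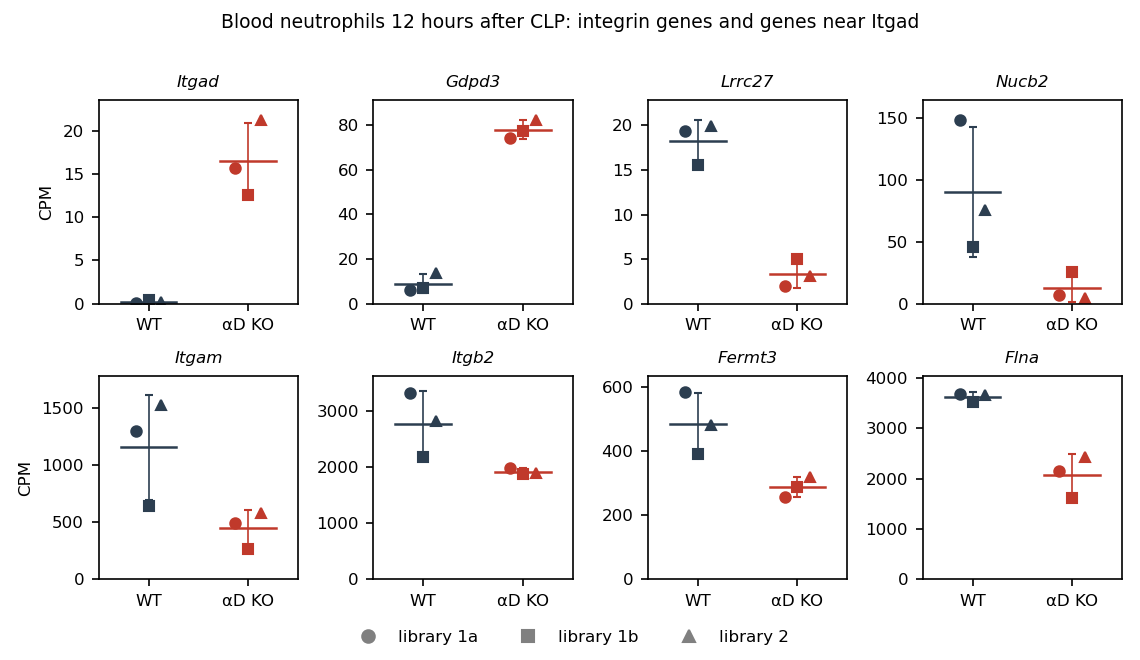
CPM (y axis, from 0) of Itgad, 3 genes near it, the integrin genes Itgam and Itgb2 and the linker genes Fermt3 and Flna in each blood library at 12 hours post-CLP, by label (x axis). Symbols mark libraries 1a, 1b and 2, horizontal lines the mean and vertical bars the SD (n = 3 libraries). In all 8 genes the libraries of the 2 labels do not overlap, and of the integrin and linker genes shown Itgad alone is higher in the libraries labelled αD KO.

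Other integrin genes were divided in direction. Of 12 genes of the β2 integrin list, Itgad included, 5 had a log2 fold change above 0 and 7 below, 4 had libraries labelled αD KO all below those labelled WT (against 4.55% of all genes) and 1, Itgad, all above (against 3.37%). The list median was -0.16, and -0.62 without both 1b libraries. The other α chain genes, Itgal, Itgam and Itgax, lie on the same chromosome as Itgad and inside the 20 Mb window around it. Whether their differences belong to that locus was not tested. Itgam, the αM chain and one of the sort markers, was at 489, 265 and 584 CPM (mean 446 ± 164, SD, n = 3) against 1296, 641 and 1522 CPM (1153 ± 458), a log2 fold change of -1.36 (SE 0.34, edgeR adjusted p = 0.962). Without both 1b libraries it was -1.38 in edgeR (adjusted p = 0.0645) and -1.41 in DESeq2 (adjusted p = 5.3e-05). Itgb2, the common β chain, was at 1990, 1876 and 1899 CPM against 3333, 2179 and 2820 CPM (log2 fold change -0.51, SE 0.25). Both groups of values were separate, but neither gene passed the test. The adaptor Fermt3 (kindlin-3) was at 259, 288 and 319 CPM against 584, 391 and 481 CPM (-0.73, SE 0.25). Tln1, talin, was at 490, 722 and 473 CPM against 752, 838 and 798 CPM (-0.49, SE 0.33). The actin crosslinker Flna (filamin A), of another list, was at 2150, 1624 and 2434 CPM against 3686, 3528 and 3661 CPM (-0.83, SE 0.26). Itgal (αL) overlapped, at 169, 271 and 168 CPM against 301, 228 and 319 CPM. Itgax (αX) also overlapped and was low, at 19.2, 1.07 and 7.57 CPM against 3.85, 4.47 and 2.78 CPM. At 0h the same genotype difference was -0.09 for Itgam, -0.15 for Itgb2 and 0.43 for Flna, again on the log2 scale.

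Among the genes whose groups did not overlap and whose mean reached 5 CPM, those with the smallest unadjusted p outside the calls above were of varied function. Higher in the libraries labelled αD KO were the endosomal adaptor Wdfy1 (65.3, 47.3 and 75.2 against 26.3, 19.3 and 33.1 CPM), the heparan sulfate sulfotransferase Hs6st1 (8.64, 12.4 and 5.86 against 2.51, 1.56 and 2.92 CPM) and the linker histone Hist1h1c (76.9, 26.1 and 43.7 against 16.7, 9.13 and 20.2 CPM). Their log2 fold changes were 1.26, 2.01 and 1.67. Dynlt1b, a dynein light chain, the kinase Dyrk2 and the unnamed Gm37486 followed at 0.98, 2.34 and 1.27. Lower were the signalling adaptor Dok2 (23, 21.6 and 19.6 against 70.9, 30.7 and 77.6 CPM), the mitochondrial carrier Slc25a45 (41.5, 45.2 and 56 against 143, 69.1 and 134 CPM) and the dynactin subunit Dctn5, a further gene of chromosome 7 (51.3, 40.8 and 52.4 against 120, 77.1 and 126 CPM). Their log2 fold changes were -1.42, -1.23 and -1.15, and those of Cdk5rap1 and the PAF-degrading enzyme Pafah2 were -1.91 and -1.47. None passed the edgeR test, each with an adjusted p of 0.962. At 0h the log2 difference of Wdfy1 was 1.34 and that of Dctn5 -1.0, while Dok2 and Pafah2 were at 1.59 and 1.63, opposite in sign to 12 hours.

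Sterol synthesis genes had negative differences, with 2 of the 3 libraries labelled αD KO far below the rest in the mean of the list. This list of 22 enzymes and regulators was written after the values of its members were seen, and its values are a description. The pathway turns acetyl-CoA by way of squalene into cholesterol and is switched on by SREBP2 when membrane sterol is low. All 22 genes were tested, 22 had a log2 fold change under 0 and 0 above, with a median of -1.0 against 0.03 over all genes tested. In 6 genes the groups did not overlap, all lower (against 4.55% of all genes). In the fit reported edgeR called 0 of the 22 genes and DESeq2 0, and the means of the list overlapped between the labels. Squalene epoxidase, Sqle, was at 2.07, 39.8 and 5.07 CPM (αD KO) against 51.4, 32 and 68.4 CPM (WT). Library 1b labelled αD KO thus lay inside the range of the libraries labelled WT, and the other two far below it. The same held for Idi1, the isomerase of isopentenyl pyrophosphate (2.5, 20.9 and 3.5 against 30.7, 13.1 and 39 CPM), for lanosterol synthase, Lss (0.785, 5.73 and 1.14 against 11.8, 3.86 and 11.9 CPM), and for lanosterol demethylase, Cyp51 (5.0, 31.6 and 6.57 against 43.3, 22.4 and 52.7 CPM). Hsd17b7 and Nsdhl, of late sterol synthesis, were separate in all libraries, the first at 4.78, 13.2 and 5.22 against 37, 20.9 and 34.5 CPM (log2 fold change -1.89, SE 0.50). Nsdhl was at 11.8, 12.9 and 11.9 against 32.1, 16.8 and 32.2 CPM (-1.09, SE 0.29). The difference in the early enzyme Hmgcs1 was smaller, at 40.1, 100 and 59.5 against 132, 68.1 and 155 CPM.

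**Figure D2:**
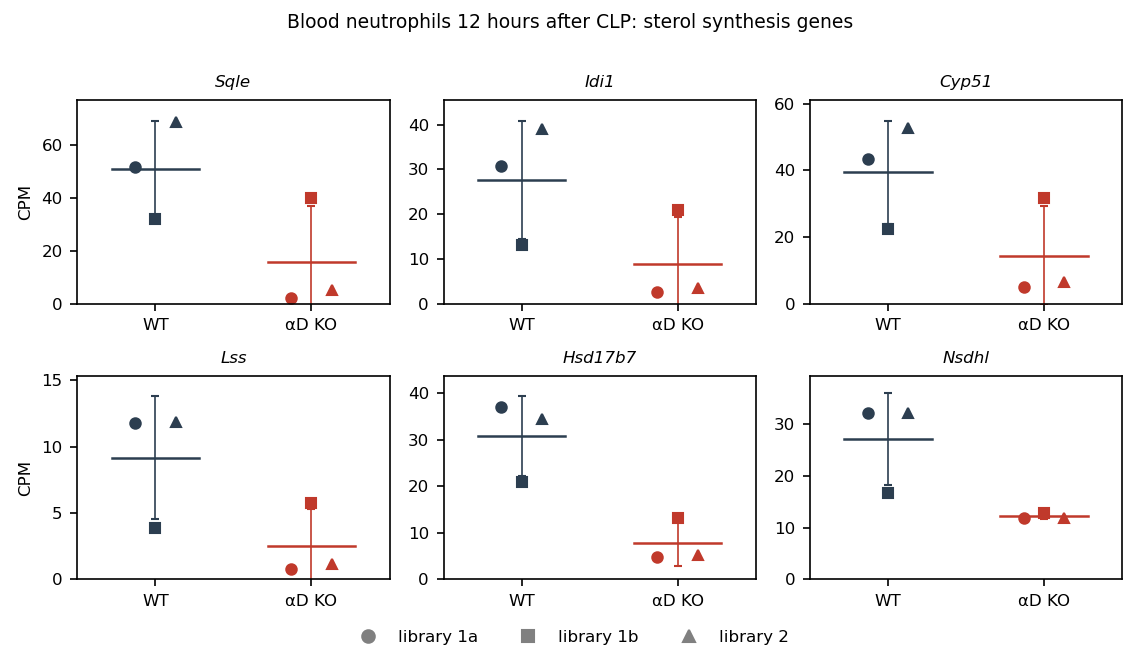
CPM (y axes, from 0) of 6 sterol synthesis genes in each blood library at 12 hours post-CLP, by label (x axis), with the mean (horizontal line) and SD (vertical bar, n = 3 libraries). Libraries 1a and 2 labelled αD KO lie below every library labelled WT in all 6 genes, while library 1b labelled αD KO lies among those labelled WT for Sqle, Idi1, Cyp51 and Lss.

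The sterol median ranged from -1.56 without library 1b labelled αD KO to -0.67 without library 1a labelled αD KO. With both 1b libraries left out it was -1.7, with 22 of 22 genes lower, and 5 of them were called lower by edgeR (against 0.168% of all genes) and 16 by DESeq2 (against 4.55%). The genes and this fit were both chosen after the values were seen, so these shares are a description and no test. In this fit the log2 fold changes of Sqle, Idi1 and Cyp51 were -4.05, -3.52 and -3.03, with edgeR adjusted p of 0.0435, 0.035 and 0.035, and those of Lss and Hsd17b7 were -3.59 and -2.82, with edgeR adjusted p of 0.0435 and 0.035. At 0h the median genotype difference of the list was 0.35, and 16 of 22 genes were higher in libraries labelled αD KO. From 0h to 12 hours the list's median log2 change in blood was 2.41 in libraries labelled WT and 1.34 in those labelled αD KO. Erythroid markers summed to 5975 CPM in library 1b labelled αD KO, the library that differs here, against 39.7 and 538 CPM in the other two. Their part in the result was not tested.

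Genes of glucose use and of protein folding in the endoplasmic reticulum had negative medians. Of 29 tested genes of glycolysis, glycogen and hypoxia, 7 had a log2 fold change above 0, with a median of -0.28, and in 3 the groups did not overlap, all lower (against 4.55% of all genes). Hk3, the myeloid hexokinase, was at 155, 319 and 147 CPM (αD KO) against 743, 371 and 584 CPM (WT), a log2 fold change of -1.35 (SE 0.42), and of -2.11 without both 1b libraries (edgeR adjusted p = 0.0394). The oxidase Ero1l was at 30.9, 42 and 27.4 against 124, 33.4 and 84.4 CPM (-1.17, SE 0.42). Lactate dehydrogenase, Ldha, had like means in both (1970 ± 592 and 1968 ± 890 CPM, SD, n = 3), and Hk2 overlapped. The list median ranged from -0.42 without library 1b labelled αD KO to -0.06 without its library 2. Of 24 genes of the unfolded protein and integrated stress response, 7 were above 0, with a median of -0.11, and 0 had groups that did not overlap (against 7.92% of all genes). The chaperone Hspa5 was at 603, 733 and 361 against 1386, 282 and 796 CPM, the disulfide isomerase Pdia4 at 9.85, 20.3 and 8.07 against 59, 14.2 and 29.9 CPM, and the transcription factor Ddit3 overlapped. Its median went from -0.58 without library 1b labelled αD KO to 0.05 without library 1a labelled WT. Without both 1b libraries the median was -0.63, and edgeR called 0 of the 24 and DESeq2 11, all lower (against 4.55% of all genes).

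Most cytosolic ribosomal protein genes had a small positive difference. They encode the protein part of the ribosome, and many of their mRNAs begin with a run of pyrimidines by which translation of the whole set is controlled. Of 79 genes tested, 74 (93.7%) had a log2 fold change above 0, against 52.8% of all genes, with a median of 0.34. In 22 the libraries labelled αD KO all lay above those labelled WT (against 3.37% of all genes), and in 1 they all lay below. Rps27 was at 117, 125 and 125 CPM (αD KO) against 64.8, 47.4 and 89.7 CPM (WT), a log2 fold change of 0.90 (SE 0.26, edgeR adjusted p = 0.962). Rpl37 was at 58, 73.4 and 61.4 against 42.4, 28.4 and 46.9 CPM, and Rpl9 at 104, 70.7 and 100 against 72.2, 53 and 62.6 CPM. For Rplp0 and Rps3, 2 core subunits, the groups overlapped, with 145, 147 and 127 against 169, 81.3 and 123 CPM for the first. The 1 gene below was Rps13, on chromosome 7 and inside the 20 Mb window around Itgad. It was at 38.3, 42.4 and 32.7 against 77.9, 47.7 and 57.1 CPM (-0.65, SE 0.27). Rps13 is the parent of the copy Rps13-ps1 that was called higher. The list median stayed between 0.22 and 0.39 when any 1 library was left out, and was 0.17, with 60 of 79 genes above 0, without both 1b libraries. At 0h, in other libraries, 74 of 79 genes were higher in those labelled αD KO, with a median of 0.30, but the mean of the list was high in library 2 labelled αD KO alone. Relative to the 6 libraries of 12 hours it was -0.398, -0.774 and 0.734 on the log2 scale (αD KO, 0h) against -0.355, -0.803 and -0.0688 (WT, 0h). In lung 36 of 79 genes were higher at 0h (median -0.013) and 33 of 79 at 12 hours (median -0.068). Both lung values are limited by libraries labelled αD KO that lay near the other time point, as described below.

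The start of 3 of these genes is shown to set the pyrimidine run against the shift, from RefSeq on GRCm38.p6, with 10 bases before and 20 from the annotated start. Capitals mark a C followed by at least 5 further pyrimidines (C or T) that begins within 5 bases of the start. The windows lie at chr3:90213629-90213658 (minus strand) for Rps27, chr15:5116603-5116632 (plus strand) for Rpl37 and chr7:116334171-116334200 (minus strand) for Rps13.
Rps27: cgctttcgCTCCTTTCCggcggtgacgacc
Rpl37: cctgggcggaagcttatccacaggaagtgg
Rps13: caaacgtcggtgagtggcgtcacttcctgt
Of the 79 genes, 58 had an entry in the RefSeq table, and 26 of these (44.8%) held the run on the coding strand, against 3229 of 27025 genes in the table (11.9%). The median log2 fold change was 0.37 in ribosomal genes with the run and 0.30 in those without. Genes that hold the run but encode no ribosomal protein had a median of 0.02 (1131 tested). A match, or its absence, is a description of the window at the annotated start and says nothing of the start site used in these cells. Genes without a match may still carry the run in their mRNA.

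**Figure D3:**
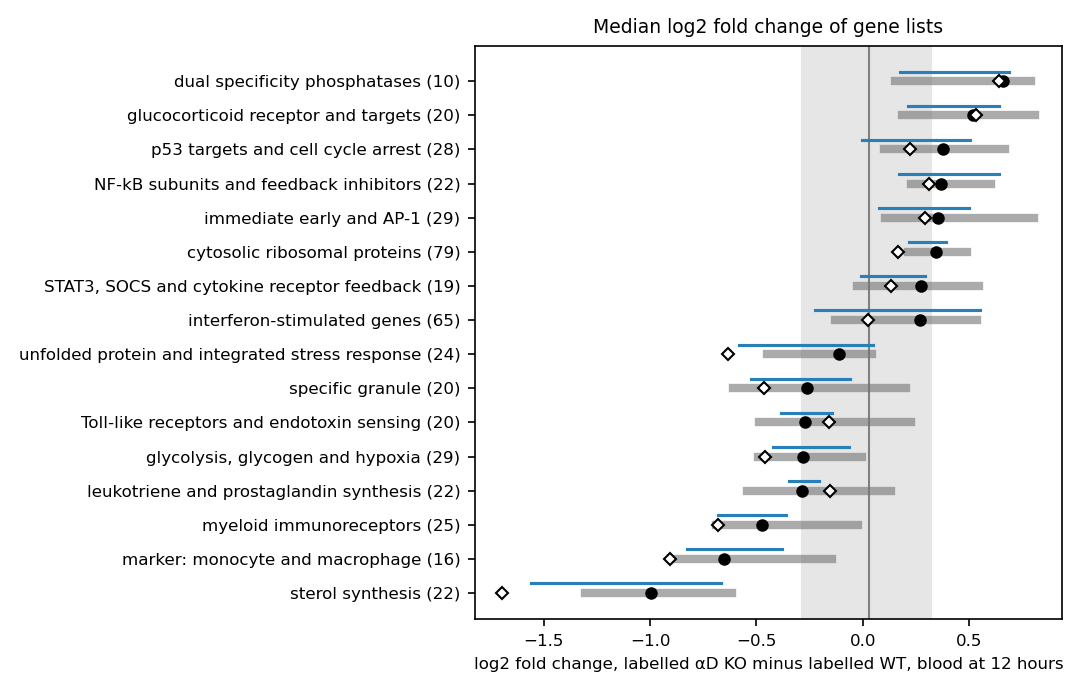
Median log2 fold change, labelled αD KO minus labelled WT (x axis), of 16 gene lists in blood at 12 hours post-CLP, with the number of genes tested in brackets. Black dots are medians over the genes, grey bars the quartiles, blue lines the range of the median when 1 library is left out, open diamonds the median without both 1b libraries, the vertical line and band the median (0.03) and quartiles (-0.29 and 0.32) of all genes tested; feedback and ribosomal lists lie to the right and sterol synthesis farthest to the left.

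Genes of inducible signalling and its feedback had mostly positive differences. Of 22 NF-kB subunits and feedback inhibitors, 19 had a log2 fold change above 0, with a median of 0.37, and 2 had groups that did not overlap, both higher (3.37% of all genes). Nfkbiz (IκBζ), a nuclear cofactor of NF-kB, was at 639, 606 and 607 CPM (αD KO) against 395, 264 and 529 CPM (WT), a log2 fold change of 0.68 (SE 0.27). Nfkbia (IκBα), which holds NF-kB in the cytosol, was at 3099, 2080 and 2902 against 2476, 820 and 1886 CPM (0.69, SE 0.34), and Tnfaip3 (A20), a ubiquitin-editing inhibitor, at 411, 189 and 425 against 302, 89.6 and 286 CPM (0.63, SE 0.41). The upper libraries labelled WT overlapped with the lower ones labelled αD KO for both. The adaptor Traf6 was at 163, 44 and 105 against 62, 50.9 and 54.2 CPM. The list median lay between 0.17 (without library 1b labelled WT) and 0.64 (without its library 1a), and the genotype difference at 0h had a median of -0.08.

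Immediate early genes, the first to be transcribed after a stimulus, and the phosphatases that shut off MAP kinases were mostly above 0 as well. Of 29 immediate early and AP-1 genes, 23 were above 0 (median 0.35), and of 10 dual specificity phosphatases 8 were (median 0.66), none with groups that did not overlap (0 against 7.92% of all genes). Among the immediate early genes 2 were higher with no overlap (against 3.37% of all genes), and 1 was lower (against 4.55%). Junb was at 1809, 1458 and 1068 CPM against 1049, 640 and 1002 CPM (log2 fold change 0.72, SE 0.29), with all libraries labelled αD KO above those labelled WT. Fos was at 1331, 525 and 556 against 403, 277 and 611 CPM, Jun at 304, 517 and 202 against 301, 759 and 230 CPM, and the orphan receptor Nr4a2 at 5.42, 0.627 and 1.14 against 0.0583, 0.652 and 0.278 CPM. Library 1a labelled αD KO was the high one in Fos and Nr4a2. Dusp1 was at 6658, 2474 and 2531 against 2756, 1414 and 2967 CPM and Dusp2 at 28.7, 45 and 7.07 against 8.92, 27.7 and 6.40 CPM, both overlapping. Without library 1b labelled αD KO the medians were 0.08 for the immediate early genes and 0.17 for the phosphatases. At 0h they were -0.16 and -0.04.

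The receptor of the adrenal stress hormone overlapped between the labels, and most genes that it regulates had positive differences. Of 20 tested genes of the glucocorticoid receptor and its targets, 17 had a log2 fold change above 0 and 0 had groups that did not overlap (against 7.92% of all genes), with a median of 0.52 and a range of 0.21 (without library 1a labelled αD KO) to 0.64. At 0h 4 of 20 were above 0, with a median of -0.23. The receptor gene Nr3c1 was at 217, 220 and 258 CPM against 299, 129 and 276 CPM. The clock gene Per1 was at 221, 28.6 and 90.6 against 40.7, 28 and 45.8 CPM (log2 fold change 1.52, SE 0.57), with all libraries labelled αD KO but 1b above those labelled WT. Tsc22d3 (GILZ), an anti-inflammatory target, was at 1530, 731 and 1068 against 754, 531 and 1096 CPM. Of 28 p53 targets and cell cycle arrest genes 23 were above 0 and 0 had groups that did not overlap (median 0.38), and the median was -0.00 without library 1a labelled αD KO. In it Cdkn1a (p21), the cyclin-dependent kinase inhibitor, stood at 192 CPM, against 4.12 and 29.3 CPM in libraries 1b and 2 and 15.4, 8.93 and 18.5 CPM in those labelled WT. The p53 target Trp53inp1 was at 1096, 267 and 870 against 283, 414 and 520 CPM, and the death gene Bbc3 (PUMA) at 25.2, 6.53 and 11.6 against 7.23, 4.57 and 5.43 CPM.

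Cytokine feedback and metal-binding genes had positive medians that depended on single libraries. Of 19 genes of STAT3, SOCS and cytokine receptor feedback, 14 were above 0, with a median of 0.27 that went to -0.01 without library 1b labelled αD KO, and in 2 the groups did not overlap, both higher (against 3.37% of all genes). Socs3, the brake on IL-6 and G-CSF signals, was at 989, 443 and 511 CPM against 282, 219 and 442 CPM (log2 fold change 1.04, SE 0.35), so the groups were only narrowly separate. Stat3 itself was at 654, 772 and 684 against 618, 570 and 623 CPM, and the IL-10 receptor chain Il10ra at 236, 97.1 and 192 against 109, 73.1 and 113 CPM. Of 9 metallothionein and zinc transport genes 6 were above 0, with a median of 0.21 that was 0.017 without library 1a labelled WT, 1.17 without its library 2 and -0.045 with at least 10 counts in every library. Mt1, a metal-binding protein induced by zinc and glucocorticoid, was at 723, 20.4 and 365 against 38.3, 69.3 and 51.8 CPM, so that 2 libraries labelled αD KO were far above and 1b below all those labelled WT. Without both 1b libraries its log2 fold change was 3.61 (edgeR adjusted p = 0.0435). Mt2 was at 21, 0.448 and 5.43 against 1.69, 0.753 and 1.25 CPM, and the zinc importer Slc39a8 at 3.07, 1.07 and 1.5 against 0.525, 0.703 and 0.209 CPM.

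**Figure D4:**
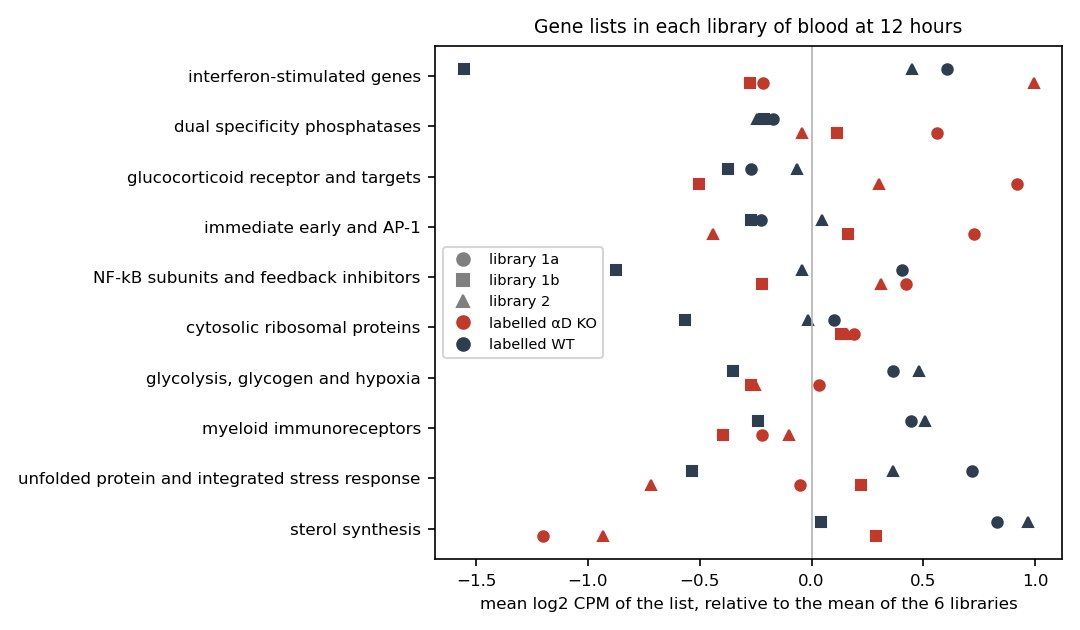
Mean log2 CPM of the genes of 10 lists in each blood library at 12 hours post-CLP, relative to the mean of the 6 libraries (x axis), with red for labelled αD KO, dark blue for labelled WT, and symbols for libraries 1a, 1b and 2. The labels do not overlap for ribosomal proteins and dual specificity phosphatases, which are 2 of all 54 lists described. For sterol synthesis library 1b labelled αD KO lies among those labelled WT, and library 1b labelled WT is the lowest in the NF-kB, ribosomal and interferon lists.

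Most myeloid immunoreceptors and Toll-like receptor genes had negative differences, and edgeR called none of them (0 called). Of 25 tested myeloid immunoreceptors, 5 had a log2 fold change above 0, with a median of -0.47 (-0.68 to -0.36 when 1 library was left out), and 3 had groups that did not overlap, all lower (4.55% of all genes). Cd200r1, an inhibitory receptor for CD200, was at 8.99, 16.3 and 24.5 CPM (αD KO) against 55.2, 34.2 and 46.2 CPM (WT), a log2 fold change of -1.42 (SE 0.38). Cd300c2 was at 13.5, 11.6 and 15.2 against 31.6, 18.5 and 26.2 CPM (-0.90, SE 0.25), and the inhibitory receptor Pirb at 2412, 1819 and 2768 against 4431, 2678 and 3917 CPM (-0.65, SE 0.25). Pirb overlapped by 1 library. The amplifying receptor Trem1 was at 1294, 456 and 802 against 741, 495 and 692 CPM. Clec12a, an inhibitory lectin for uric acid crystals, was at 38.6, 89.8 and 41.3 against 328, 76.4 and 205 CPM (-1.7, SE 0.54), and without both 1b libraries at -2.71 (edgeR adjusted p = 0.0394). Of 20 genes of Toll-like receptors and endotoxin sensing, 7 were above 0 and 0 had groups that did not overlap (against 7.92% of all genes), with a median of -0.27. Tlr4, the endotoxin receptor, was at 30.5, 85.9 and 41.6 against 90.9, 70.3 and 164 CPM, its coreceptor Cd14 at 5157, 1608 and 2453 against 2857, 1174 and 1620 CPM, and Tlr1 at 19.9, 19.2 and 27.1 against 34.4, 24.9 and 42.3 CPM.

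Markers of monocytes and of eosinophils and basophils went with these receptors. Of 16 tested monocyte and macrophage markers, 4 were above 0 (median -0.65), with sums of 902, 833 and 1114 CPM (αD KO) against 1498, 765 and 1644 CPM (WT). F13a1, coagulation factor XIII A, was at 30.4, 35.7 and 46.2 against 110, 52.6 and 98.3 CPM (log2 fold change -1.17, SE 0.29), while the defining receptors Csf1r (106, 104 and 154 against 142, 83.1 and 216 CPM) and Ccr2 (5.92, 3.49 and 11.9 against 3.32, 2.86 and 8.49 CPM) overlapped. The 15 eosinophil and basophil markers summed to 10.9, 14.9 and 17 CPM against 32.7, 24.8 and 29.5 CPM, with no overlap, and 3 of them were at 0 in all libraries labelled αD KO and 1 in all labelled WT. Of this list 4 genes were tested and 1 was above 0 (2 of 4 without both 1b libraries). Those with no overlap were lower. Ear2, a ribonuclease, was at 5.42, 8.86 and 10.6 against 23.3, 15.1 and 19 CPM, and Siglecf, also an immunoreceptor, at 1.57, 3.31 and 2.29 against 5.48, 5.47 and 7.38 CPM. Their part in the receptor result was not tested.

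Lipid mediator and granule lists had negative medians. Of 22 genes of leukotriene and prostaglandin synthesis, 8 were above 0 (median -0.29, -0.35 to -0.21 when 1 library was left out), and 3 had groups that did not overlap, all lower (against 4.55% of all genes). Pla2g4a, the phospholipase that frees arachidonate, was at 9.78, 12.3 and 7.14 CPM against 17.1, 18.1 and 26.9 CPM (log2 fold change -1.06, SE 0.37). Alox5, which makes leukotriene A4, was at 480, 606 and 458 against 692, 756 and 610 CPM, its partner Alox5ap at 2794, 3231 and 2804 against 3234, 2105 and 2699 CPM, and the prostaglandin E synthase Ptges at 16.3, 10.5 and 24.3 against 51.9, 17.9 and 35.3 CPM (-1.01, SE 0.37). Of 20 specific granule genes 6 were above 0, with a median of -0.26 that ranged from -0.53 without library 2 labelled WT to -0.062 without its library 1a, and of 14 gelatinase granule genes 6 were, with a median of -0.067 that ranged from -0.25 to 0.033. Itgb2l, an integrin β chain-like gene of marrow neutrophils, was at 794, 681 and 688 against 2035, 1092 and 1181 CPM (-0.97, SE 0.28), whereas lactoferrin, Ltf (21556, 2966 and 14871 against 25606, 10169 and 5734 CPM), and Lcn2 (16860, 15574 and 16692 against 23716, 14072 and 19789 CPM) overlapped. At 0h the specific granule median was 1.33, opposite in sign. The 14 immature neutrophil markers summed to 127800, 39175 and 114700 CPM against 189050, 80317 and 93221 CPM beside it, and their part was not tested.

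Interferon-stimulated genes followed single libraries. Of 65 tested, 44 were above 0, with a median of 0.27 that ranged from -0.22 without library 2 labelled αD KO to 0.55 without library 1a labelled WT. Ifit1, an antiviral RNA-binding protein, was at 39, 34.7 and 176 CPM (αD KO) against 80.4, 4.77 and 52 CPM (WT), and Ifit3 at 16.6, 16.6 and 77.5 against 14.9, 0.953 and 17.8 CPM. The high library labelled αD KO was 2 and the low one labelled WT was 1b. Without both 1b libraries the interferon median was 0.023, with 34 of 64 genes above 0. In that fit, of the lists described above, those with positive medians stood at 0.13 (STAT3, SOCS and cytokine receptor feedback), 0.22 (p53 targets), 0.29 (immediate early genes), 0.31 (NF-kB), 0.34 (metallothioneins), 0.53 (glucocorticoid receptor and targets) and 0.64 (dual specificity phosphatases). Those with negative medians stood at -0.16 (leukotriene and prostaglandin synthesis), -0.16 (Toll-like receptors), -0.24 (gelatinase granule), -0.46 (specific granule), -0.46 (glycolysis), -0.68 (myeloid immunoreceptors) and -0.91 (monocyte markers). Other lists turned sign: stefins and protease inhibitors (0.03 to -0.82), actin cytoskeleton and motility (0.0064 to -0.28), T and NK cell markers (-0.019 to 0.30), granulopoiesis transcription factors (0.23 to -0.13), the TNF superfamily (0.12 to -0.11), the interleukin-1 family (-0.083 to 0.15) and MHC class II (-0.14 to 0.14), as did erythroid markers and oxidative phosphorylation. Over all 54 lists described by their mean per library, the labels did not overlap in 2, both higher in αD KO (ribosomal proteins and dual specificity phosphatases), and overlapped in 52. Groups did not overlap in 7.92% of the single genes tested, so the count of 2 is no result about these lists.

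The depth of the septic state was read from genes that change with CLP. Each blood library was placed on a line between the mean of the untreated WT libraries (0) and that of the WT libraries at 12 hours (1), with a WT library left out of these means when it was placed itself, over the genes called by edgeR (DEGs) between these groups. Over the 1975 DEGs of WT blood, libraries labelled αD KO at 12 hours lay at 0.90, 0.935 and 0.948 (mean 0.928 ± 0.025, SD, n = 3) and those labelled WT at 1.15, 0.859 and 0.944 (0.983 ± 0.148). The groups overlapped, and the difference of -0.056 was smaller than the spread of the libraries labelled WT. Untreated libraries lay at 0.140, 0.0341 and 0.262 (αD KO) and at -0.0087, 0.0580 and 0.0512 (WT), so that each library was far nearer to its own time point. The genes and the ends of this line come from the libraries labelled WT, so they are not independent of it. With the 1238 DEGs of αD KO blood in their place the difference was 0.047. With the means of αD KO blood at 0h and 12 hours as ends of the line the difference was -0.077. With the 1340 DEGs of WT lung, genes chosen without the blood libraries but placed on the same WT blood ends, positions were 0.998, 0.950 and 1.01 (αD KO) and 1.14, 0.813 and 0.954 (WT), a difference of 0.015.

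**Figure D5:**
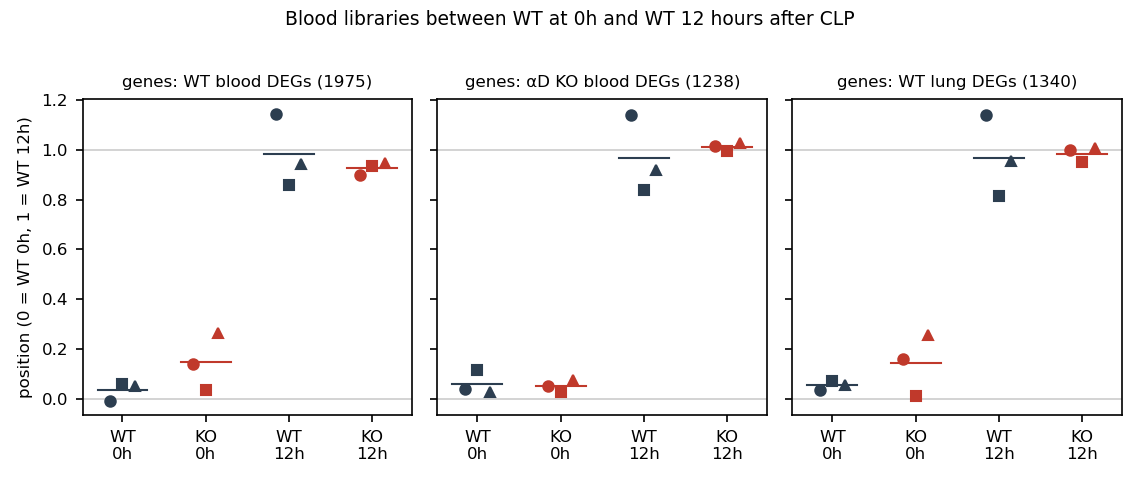
Position of each blood library between the mean of WT at 0h (0) and of WT at 12 hours post-CLP (1) on the y axis, over 3 sets of DEGs (panels, number of genes in brackets), by label and time (x axis; red, labelled αD KO; dark blue, labelled WT; circle, square and triangle, libraries 1a, 1b and 2; horizontal lines, means). At 12 hours the libraries labelled αD KO lie between 0.90 and 1.03 and inside the wider range of those labelled WT in every panel.

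Gene by gene the septic response was of like direction under both labels. Across 1291 genes chosen in WT lung, 1264 (97.9%) had the same direction of change from 0h to 12 hours under both labels, with r = 0.931 across genes, which are not independent replicates. The median absolute log2 change was 1.77 in libraries labelled αD KO and 1.99 in those labelled WT, and the slope through 0 was 0.844 for αD KO on WT and 1.02 for WT on αD KO. At 12 hours itself, of 773 lung-chosen genes that rise with CLP, 422 (54.6%) were higher in the libraries labelled αD KO, with a median log2 fold change of 0.06, and of 465 that fall 189 (40.6%) were higher, with a median of -0.12, against 52.8% and 0.03 over all genes. Where the genes were chosen in blood, the shares differed between the sets. Of 1134 genes that rise in WT blood 37.7% were higher in αD KO (median -0.13), and of 531 that rise in αD KO blood 64.6% were (median 0.12), but each choice shares the libraries of 12 hours.

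A direct test of whether the response to CLP differed with genotype found no gene in edgeR. The interaction of genotype and time in blood was called in 0 of 19792 genes (percent called 0), with 232 at an unadjusted p under 0.05, and limma-voom called 0. The biological coefficient of variation, the spread between libraries, was 0.898 in this fit against 0.431 in the fit of 12 hours. The 0 calls therefore do not show that the response was the same. DESeq2 called 1 gene (0.00232%), Flna, whose change with CLP was smaller in the libraries labelled αD KO by a log2 difference of -1.23 (DESeq2 adjusted p = 0.0216); edgeR gave -1.17 with an adjusted p of 1. Whether the genotype difference at 12 hours differed between blood and lung gave 0 of 18236 genes in edgeR (percent called 0, 1795 at an unadjusted p under 0.05), 62 in DESeq2 (0.59%) and 4137 in limma-voom (22.7%). Some of the lung libraries labelled αD KO go against their labels. On the line from WT lung at 0h (0) to WT lung at 12 hours (1), those labelled αD KO at 12 hours lay at 0.0870, 0.891 and 0.190, so that 2 of 3 were near untreated lung, and 1 library labelled αD KO at 0h lay at 1.08. Without library 1b labelled αD KO of lung edgeR called 42 genes and without library 1b labelled WT of lung 258. Differences between the tissues therefore cannot be told apart from what sets these libraries apart.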

How the data were processed

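Neutrophil RNA was made into full-length cDNA (SMART-Seq v4) and Nextera XT libraries; the authors trimmed reads with Trimmomatic 0.36 and aligned them with STAR 2.5.2b to GRCm38, and deposited raw counts per gene, 1 file per library. Amplification before counting means that counting error alone understates the spread. Coordinates are those of the deposited files, and 44823 of their 49315 genes have the same coordinates in the GRCm38 annotation used here.

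Groups came from the sample labels. Counts were filtered with filterByExpr, scaled by TMM and tested with the quasi-likelihood test of edgeR 4.0.16 in R 4.3.3 over the 6 libraries of the comparison, without covariates; interactions were fitted over the 12 libraries concerned. A gene was called at a Benjamini-Hochberg adjusted p under 0.05 with an absolute log2 fold change over 1, an interaction at an adjusted p under 0.05. DESeq2 1.42.0 and limma 3.58.1 (voom) were alternatives, and adjusted p that DESeq2 gave as NA were left as NA. CPM values use TMM over all 24 libraries. With 3 libraries against 3, no permutation test can reach 0.05, so none was used. The scripts were tested on simulated counts. Positions between time points used log2 CPM with a prior count of 1.

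The members, the 54 gene lists (1108 genes) and the tests were chosen with earlier results of these data known, and the sterol list after its values were seen. Named genes were the β2 integrin chains, genes called by edgeR or DESeq2, the 10 in each direction with the smallest edgeR p among those that did not overlap with a mean of at least 5 CPM, the first 2 and up to 4 further genes of each list described, and called interactions; Tln1, the sterol genes, Clec12a, Itgb2l, Cebpb and some markers were added after their values were seen. Dispersion across genes corresponded to a biological coefficient of variation of 0.431 for the genotype difference at 12 hours. It was 0.898 for genotype by time and 0.702 for genotype by tissue. Some single-gene results are not reported here.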

Additional observations from a re-analysis of the deposited data

How the results depend on the processing

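For labelled αD KO against labelled WT blood at 12 hours, 0 genes were called by edgeR in the fit reported, with RLE scaling, with at least 10 counts in every library, with the files of sample 1 summed and with any 1 library left out (range 0 to 0). No filter on low counts gave 80 calls, DESeq2 10, limma-voom 6, and edgeR over all 8 groups or over the 4 blood groups 2 each, Itgad and Gdpd3. Leaving out both 1b libraries, chosen after the data were seen, gave 28 in edgeR and 778 in DESeq2, and 4 and 10 of these were among the 10 DESeq2 calls. For genotype by time DESeq2 gave 1 call, and for genotype by tissue DESeq2 gave 62, summed files 582, no filter 398 and limma-voom 4137, with 0 to 258 when 1 library was left out; the cause was not tested. Of the 54 lists 21 had a median above 0 in the fit reported and 16 to 28 when 1 library was left out. The difference in position between time points was -0.056, 0.029 without library 1a labelled WT and between -0.098 and -0.042 without any other single library, always within the spread of the libraries. Without both 1b libraries it was -0.099.

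Replicate numbers are shared between the labels, and nothing states that they mark shared animals or days. The deviations from the group means correlated at 0.0819 for 1a, 0.265 for 1b and 0.243 for 2, so not each was over 0.1. Each library labelled αD KO correlated best with the one labelled WT of its own number, while library 1a labelled WT correlated best with library 2 labelled αD KO (0.150). The libraries were taken as unpaired. With the replicate number as a block 0 genes were called for the genotype difference and for both interactions, 18 of 54 lists had a median above 0, and the position difference was -0.056.

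Some named genes changed sign, among them Cebpb, at 3.25 in the fit reported, Ifit1, at 0.93, and Ccr2, at 0.53. Without both 1b libraries (edgeR, then DESeq2) Rplp0 was at -0.084 and -0.12, Nr3c1 at -0.26 and -0.29, Alox5ap at -0.063 and -0.10, Ldha at -0.028 and -0.074, Ltf at 0.25 and 0.19, Cebpb at -0.25 and -0.29, and Rps3 at -0.012 in DESeq2. Nr3c1 was also at -0.018 over all 8 groups, -0.048 with summed files, -0.013 with no filter and -0.064 in limma-voom. Ldha was at -9.0e-06 in DESeq2 and -0.014 with no filter, Ltf at 0.22 with summed files and 0.52 in limma-voom, and Cebpb at -0.40 in limma-voom. With 1 library left out, ranges crossed 0 for Jun (-1.0 to 0.55), Nr3c1 (-0.19 to 0.16), Trem1 (-0.014 to 0.60), Alox5ap (-0.047 to 0.23), Ldha (-0.20 to 0.34), Ltf (-0.65 to 0.54), Ifit1 (-0.19 to 1.56), S100a8 (-0.48 to 0.027), Hspa5 (-0.82 to 0.070), Ddit3 (-0.54 to 0.13), Csf1r (-0.45 to 0.048), Ccr2 (-0.028 to 1.09) and Cebpb (-2.81 to 5.80). Depth limits low genes such as Wnt11, Nr4a2 and Lilra5, where a library holds few counts.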

Other observations

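Circadian clock genes, which time transcription over the day in most cells, were above 0 in 11 of 15 tested, with a median log2 fold change of 0.39 between libraries labelled αD KO and WT at 12 hours (0.17 without library 1a labelled αD KO to 1.01 without library 1b labelled WT), and in 12 of 13 with a median of 0.86 without both 1b libraries. Nuclear genes of oxidative phosphorylation were above 0 in 37 of 51 (median 0.15), but in 19 of 51 (median -0.14) without both 1b libraries. Of 13 platelet markers 11 were above 0 (median 0.95, with 0.42 to 1.48 when 1 library was left out and 0.36 with at least 10 counts in every library, and 1.29 without both 1b libraries), and of 10 B cell markers 0 were (median -0.85, with -2.0 to 0.68 when 1 library was left out and -0.98 without both 1b libraries). Erythroid markers were above 0 in 10 of 11 (median 0.56, with -2.10 to 1.10 when 1 library was left out) and in 1 of 11 (median -2.0) without both 1b libraries.

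Cebpb, a transcription factor of emergency granulopoiesis, was at 27.2, 4542 and 29.9 CPM (αD KO) at 12 hours and at 29.6, 407 and 39.3 CPM (WT). It was high in the 1b library under both labels, and library 1b labelled αD KO was more than 100 times as high as library 1a of the same sample.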
